A study of Mus musculus with 42 samples.

Results

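Chromatin regions were examined that were more accessible on a stiff culture gel than on a soft one and that had also gained accessibility in culture over cells taken directly from the lung. A region was taken as a member when the authors' list of 32 kPa against 0.2 kPa cultures gave it a higher level on 32 kPa and it overlapped, by at least 1 base, a region that their list of 32 kPa against sham gave a higher level on 32 kPa. The stiffness list held 2558 regions, of which 2551 were higher and 7 lower on 32 kPa, and 1760 of the 2551 met both conditions. The other raised regions were 460 that were below sham on 32 kPa and 331 that overlapped no region of the list against sham. The members made up 1760 of the 17328 regions gained on 32 kPa over sham, and the 15568 other gained regions held no member. Those are regions that did not pass the limits of the stiffness list in this direction, which does not show that stiffness left them as they were.

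The study profiled mouse lung mesenchyme by ATAC-seq, which reads open chromatin through the cuts of a transposase, and by RNA-seq, in 42 libraries of 2 strains. In CD1 mice, cells that carried GFP under Col1a1, a collagen I gene, and that were negative for CD45, EpCAM and CD31, were grown for 5 days on collagen-coated silicone gels of 32 kPa or 0.2 kPa in serum-containing medium, or were taken directly after sorting from sham-treated lungs (3 libraries per group and assay). The 32 kPa and 0.2 kPa cultures share the plate culture, the serum and the collagen coat, none of which the sham cells met, so stiffness is the difference between the gels, while the difference from sham holds all of them at once. In C57BL/6 mice, GFP-positive cells labelled by Col1a2 lineage tracing, negative for CD45 and EpCAM, were sorted 14 or 56 days after bleomycin, an agent that scars the lung, or after sham treatment (4 libraries per group and assay). Both reporters mark collagen-producing cells as a mixture, the labels give no ages, and they do not say which libraries are separate animals or cultures, so a p-value below measures only the spread between libraries, which may be technical.

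Fibroblasts sense the stiffness of what they stand on through integrins and focal adhesions, and pull on it through actin. In these cells the force is known to bring the cofactors YAP and TAZ into the nucleus, where they bind DNA through TEAD proteins, often at enhancers that also hold AP-1, the Fos and Jun dimer. RUNX1 is another factor known from activated fibroblasts. Most enhancers of this kind lie far from the genes they act on.

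Sequences of 7 members are shown because they are, in order, a member with a large stiffness difference, members beside genes whose RNA is described below, a region 1 of 6 beside the same gene, the member with the largest gain after injury, and a member beside a YAP target in which none of the 3 motifs was found. They are the whole regions of the plus strand of mm10, 5′ to 3′, read from the mouse reference genome of that build. Capitals mark matches, on either strand, to AP-1 (TGANTCA), TEAD (GGAATG, read as CATTCC on the other strand) and RUNX (TGTGGT, read as ACCACA).
Epas1 intron, chr17:86770261-86770361: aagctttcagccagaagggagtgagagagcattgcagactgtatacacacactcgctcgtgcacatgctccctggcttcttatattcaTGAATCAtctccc
Runx1 intron, chr16:92608253-92608398: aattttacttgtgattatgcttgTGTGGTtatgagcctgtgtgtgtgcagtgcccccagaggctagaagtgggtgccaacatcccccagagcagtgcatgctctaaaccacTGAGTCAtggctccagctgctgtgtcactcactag
upstream of Itga5, chr15:103371911-103372064: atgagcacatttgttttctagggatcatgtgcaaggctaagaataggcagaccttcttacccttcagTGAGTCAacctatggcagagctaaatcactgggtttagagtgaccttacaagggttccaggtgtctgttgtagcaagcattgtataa
upstream of Col3a1, chr1:45269539-45269698: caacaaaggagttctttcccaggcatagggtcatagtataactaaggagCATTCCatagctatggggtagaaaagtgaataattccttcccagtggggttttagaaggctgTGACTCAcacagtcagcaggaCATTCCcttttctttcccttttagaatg
Pard3b intron nearest to Nrp2, chr1:62552529-62552719: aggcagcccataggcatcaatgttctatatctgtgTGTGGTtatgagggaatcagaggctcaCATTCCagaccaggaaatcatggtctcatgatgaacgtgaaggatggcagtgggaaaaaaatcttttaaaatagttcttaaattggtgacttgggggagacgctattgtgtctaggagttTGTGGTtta
intergenic, nearest to Mettl15, chr2:108593627-108593917: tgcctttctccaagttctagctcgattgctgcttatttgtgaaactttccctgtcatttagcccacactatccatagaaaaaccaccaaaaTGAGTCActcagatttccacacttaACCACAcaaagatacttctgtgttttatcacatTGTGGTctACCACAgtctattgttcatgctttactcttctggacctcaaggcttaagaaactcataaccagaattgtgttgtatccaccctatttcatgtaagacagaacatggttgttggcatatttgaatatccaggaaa
upstream of Ankrd1, chr19:36128674-36128890: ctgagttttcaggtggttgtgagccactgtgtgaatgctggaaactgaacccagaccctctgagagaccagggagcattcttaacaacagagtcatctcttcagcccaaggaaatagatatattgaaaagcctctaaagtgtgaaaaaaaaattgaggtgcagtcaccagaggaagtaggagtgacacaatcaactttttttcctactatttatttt
The Epas1 and Itga5 regions hold 1 AP-1 match each. The Runx1 region holds 1 AP-1 and 1 RUNX match, the Col3a1 region 1 AP-1 and 2 TEAD matches, the Nrp2 region 1 TEAD and 2 RUNX matches and the Mettl15 region 1 AP-1 and 3 RUNX matches. A match is a run of letters and does not show that a factor was bound.

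The levels that follow are the authors' region values, log2 of the normalised read concentration averaged over a group, so they come without a spread between libraries. The members were chosen by these values, which are given as a description. Read counts per library and the depth of the ATAC libraries were not analysed here. The levels stood in the order sham, 0.2 kPa, 32 kPa in most members. The median log2 level was 2.77 in sham (lowest −0.25, highest 7.72), 4.44 on 0.2 kPa (lowest −0.03, highest 7.43) and 5.55 on 32 kPa (lowest 2.50, highest 8.42).

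The step between the gels was small and of nearly 1 size, while the step from sham varied widely. The log2 difference of 32 kPa over 0.2 kPa had a median of 1.10, with quartiles of 1.04 and 1.19. It lay under 1.2 in 1327 members (75.4%) and reached 1.5 in 46. The stiffness list held no region with a log2 difference under 1.00, so most members lay close to that limit, and the 791 other raised regions had a median of 1.09. The log2 difference of 32 kPa over sham had a median of 2.88, with quartiles of 1.86 and 3.60 and a range of 0.50 to 5.93. It was 2.55 in the other gained regions.

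Most members were already above sham on the soft gel. Set across the 2 lists, the 0.2 kPa level was above the sham level in 1587 members (90.2%), by at least 1 log2 unit in 1219 (69.3%), and below it in 169. The median of that difference was 1.72. The authors' list of 0.2 kPa against sham called 0 members lower (0.0%), beside 0.0193% of the other gained regions. The difference of 0.2 kPa from sham joins levels of 2 lists. The 32 kPa level was the same in both for the 1676 members with the same ends. Whether the 0.2 kPa and sham levels share 1 scale was not tested. The list of 0.2 kPa against sham gave neither of these levels. Between it and the list of 32 kPa against sham, the sham level of 37722 regions differed by a median of −0.18. Nearly all of these regions (37707) were lost on both gels. The authors' own list of 0.2 kPa against sham called 202 members higher (11.5%), beside 34.3% of the other gained regions. The rule chose members for a 0.2 kPa level under that of 32 kPa by at least 1.00, and it used the same libraries. That list asks for at least 1.00 over sham, so the rule by itself lowers the members' share. In those 202 the median log2 difference from sham was 3.50 on 32 kPa and 2.58 on 0.2 kPa.

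A difference between the gels was also present across regions that closed in culture. For the 37707 regions lost on both gels, the log2 fold of 32 kPa over sham was above that of 0.2 kPa over sham by a median of 0.37 (quartiles 0.07 and 0.58). That offset joins 2 lists and is not a difference between the gels within 1 list. The sham levels of these lists differed by a median of −0.18, lower in the list of 32 kPa, which raises its folds. The list of 0.2 kPa held no log2 difference under 1.00 in size, while that of 32 kPa went down to 0.31. How far these limits make up the offset was not tested. It runs in the direction of the members' difference between gels, and how far it enters the members' values was not tested.

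**Figure D1:**
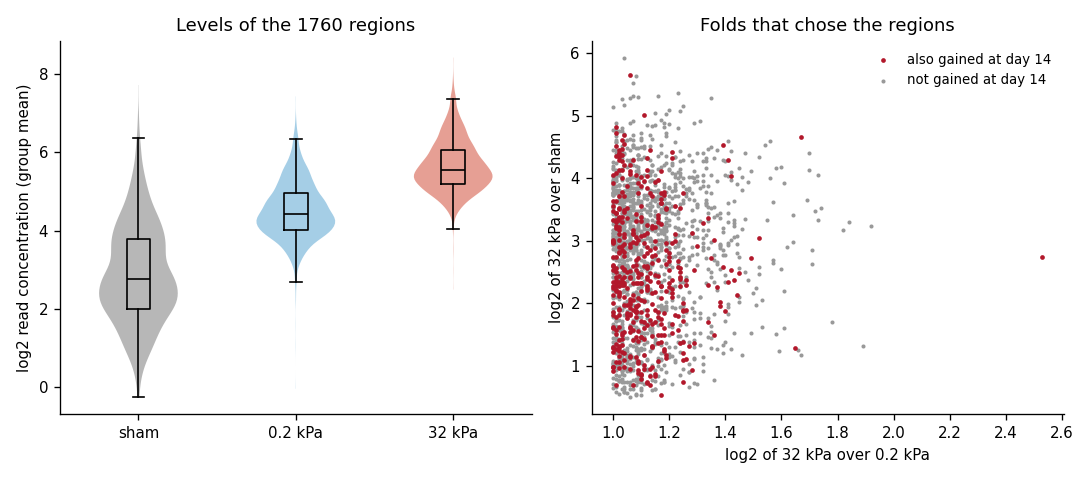
Levels of the 1760 members. The violins give the authors' log2 level in sham, on 0.2 kPa and on 32 kPa, with the box at the quartiles and the median (2.77, 4.44 and 5.55) and whiskers to the farthest values within 1.5 box lengths, and the scatter gives each member's log2 difference of 32 kPa over 0.2 kPa against that over sham, with members that were also gained at day 14 after bleomycin in another colour. Of the points, 1327 lie under 1.2 between the gels, and all spread from 0.50 to 5.93 over sham.

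The members given here for a large difference between the gels had 32 kPa levels under the median of 5.55. The highest was in an intron of Raet1e, whose product is a ligand of the NKG2D receptor of natural killer cells. It had log2 levels of −0.25 in sham, −0.03 on 0.2 kPa and 2.50 on 32 kPa. The difference between the gels was 2.53. All 3 levels were the lowest of any member, so that difference rests on few reads. A member in an intron of Epas1, the gene of the oxygen-sensitive factor HIF-2 alpha, had levels of 3.37 in sham, 2.79 on 0.2 kPa and 4.68 on 32 kPa. Its mean level on the soft gel was below sham, so the means of the 2 gels fell on opposite sides of the fresh cells. The authors' list of 0.2 kPa against sham did not call this member lower. Other large differences were those of members in an intron of Sfi1, nearest to the pseudogene Pisd-ps1 (1.92), in an intron of Pccb (1.84), nearest to Snx27 (1.82) and beside Xkr5 (1.78), with 32 kPa levels of 2.99, 3.45, 4.50 and 4.10.

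Of the 10 members with the largest gain over sham, 7 were intergenic and 3 in introns. The highest, 229967 bases upstream of the pseudogene Zp4-ps, had levels of 0.75 in sham, 5.65 on 0.2 kPa and 6.68 on 32 kPa, a log2 difference of 5.93 over sham, and the authors' list for the soft gel gave it 4.87. A member 309392 bases from Gxylt1 differed from sham by 5.63, and 1 beside Pcdh18, a protocadherin, by 5.28. The Pcdh18 member had a sham level of −0.25, the lowest of any member, so the size of its gain rests on few sham reads. At the other end, the members closest to sham were beside Col5a2 (0.50), 0610039H22Rik (0.53), Mrm3 (0.54), Fryl (0.54) and Mir3074-1 (0.55). The raised regions closest to the rule but below sham were beside Bean1 (−0.38), 4931430N09Rik (−0.38), Arhgap18 (−0.42), Zcchc14 (−0.43) and Rsrc1 (−0.44). Of members closest to the limit between the gels, those beside Cdc42se1, Fgf2, Gab2, Itga11 and Id4 all stood at 1.00.

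Position was not used to choose the members. They lay in intergenic sequence (886, or 50.3%) and introns (811, or 46.1%), and 20 (1.14%) were at promoters. Of the raised regions below sham, 166 of 460 (36.1%) were at promoters, and of those in no list against sham 27 of 331 (8.16%). The median distance to the nearest start of a gene was 47125.5 bases in members, 1872.5 bases in the raised regions below sham and 23733 bases in the unlisted ones. In members 83.7% were at least 10 kb from a start and 30.9% at least 100 kb, while 1.82% were within 1 kb. Raised regions below sham were within 1 kb in 47.2%.

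**Figure D2:**
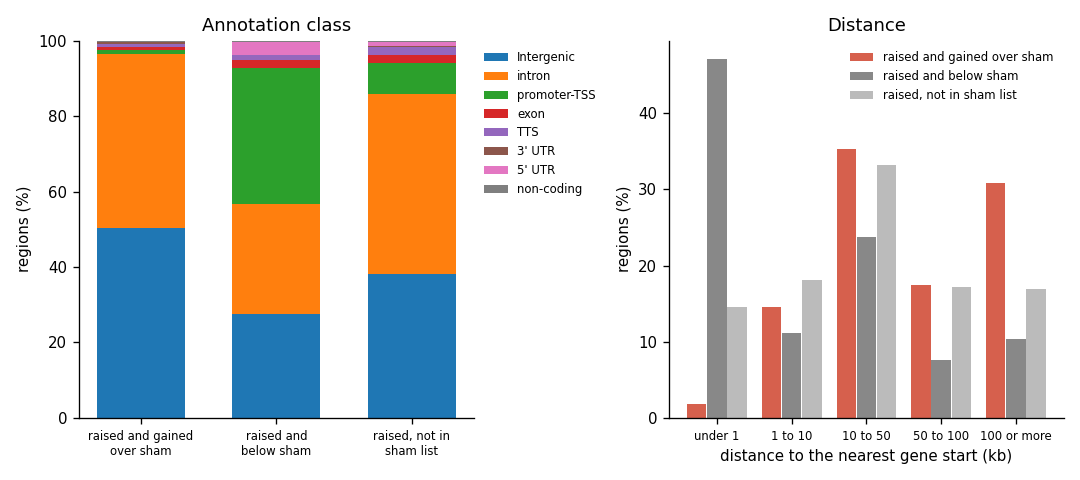
Position of the members beside the other raised regions. The bars give the percentage of regions in each annotation class and in each range of distance to the nearest start of a gene, for the 1760 members, the 460 raised regions below sham and the 331 raised regions in no list against sham. Promoters make up 1.14% of the members and 36.1% of the raised regions below sham.

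Members were short, with a median width of 198 bases (74 to 700), against 237 bases in the other gained regions. They were scattered along the genome. The median distance to the next member was 357355 bases, and 268 (15.2%) had another within 50 kb. Chromosome 1 held 174 members (9.89%), beside 7.77% of the other gained regions. Nrp2, a receptor for semaphorins and VEGF-C, was the nearest gene of 6 members on that chromosome, 4 of them in introns of its neighbour Pard3b. Bmpr1b, a BMP receptor, Slit2, a guidance ligand, Tmem135, Mbnl1, a splicing factor, Cdkal1 and Dcbld2 were each nearest to 4. The 20 promoter members included those of Utp25, Cdhr1, Tmprss11f, Rab3c, Rspo2, an R-spondin that strengthens Wnt signals, Egr4, Atoh1 and Snapc2, with log2 differences between the gels of 1.11 to 1.18.

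Sequence, also not used by the rule, was read in the 300 bases around each centre. AP-1 was the most frequent motif searched. It was present in 63.7% of members (95% Wilson interval 61.4 to 65.9%, counting error only), in 64.3% of the other gained regions, in 14.5% of regions lost on 32 kPa and in 29.2% of all regions of the list against sham. The TEAD motif was present in 30.9% of members, 33.2% of other gained, 16.7% of lost and 21.5% of all regions. RUNX was present in 29.1%, 31.9%, 16.1% and 20.7% of the same sets. At least 1 of AP-1 and TEAD was present in 76.9% of members and both were in 17.7%. Members had close to the same shares as the other gained regions.

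The raised regions that were below sham had another make-up. AP-1 was present in 25.9% of them, TEAD in 18.9% and RUNX in 16.3%. The GC box (GGGCGG), common at promoters and searched as a control, was present in 37.0% of them, in 3.18% of members, in 4.95% of the other gained regions and in 26.1% of all regions. The median GC content of the window was 43.7% in members, 45.7% in the other gained regions and 54.3% in the raised regions below sham. Of the other motifs, that of GATA factors (AGATAA) was present in 16.6% of members and 11.5% of all regions, the partial NFI motif (TTGGCA) in 18.2% and 20.4%, the E-box (CAGCTG) in 15.5% and 21.8%, C/EBP (TTGCNNAA) in 12.6% and 13.1% and the CArG box of SRF in 0.966% and 1.89%. Motifs were searched on both strands, with overlapping matches counted. The differences in GC content between the sets move with these shares, and their part was not tested.

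AP-1 matches sat at the centre of the members. Their density reached 6.75 per kb in the 25 base bin at the centre, against a highest density of 6.30 per kb in the other gained regions and 0.832 per kb in regions lost on 32 kPa. TEAD reached 2.18 per kb in members and 2.17 per kb in the other gained regions.

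**Figure D3:**
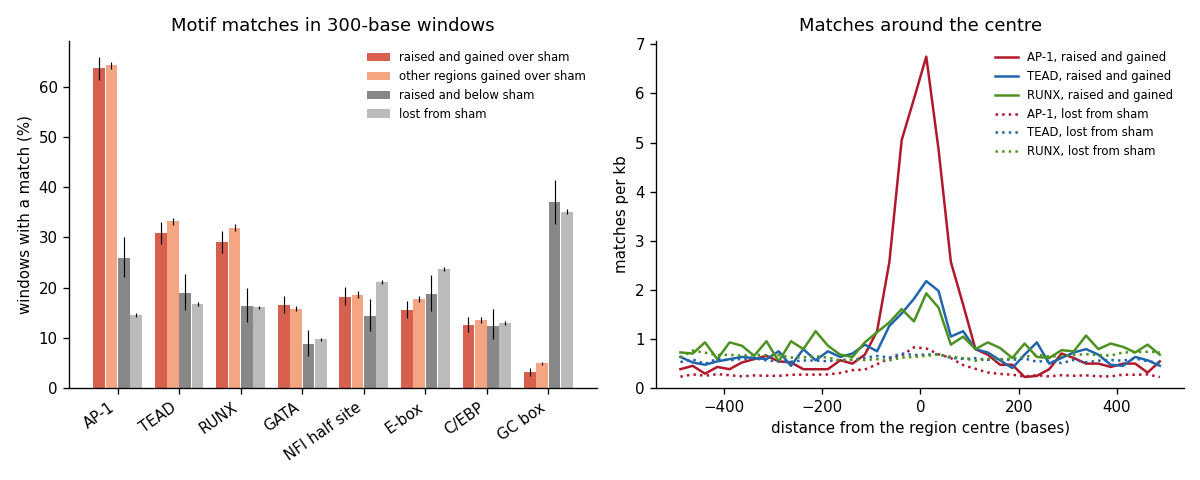
Motif content. Bars give the percentage of 300 base windows that hold each of 8 motifs, with 95% Wilson intervals, in members, other gained regions, raised regions below sham and lost regions, and the lines give matches per kb by distance from the centre, solid for members and dotted for lost regions. AP-1 is in 63.7% of members and 14.5% of lost regions, and its matches in members lie at the centre.

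A separate look at the members came from injured lungs, in another strain, sort and reporter, whose libraries the rule did not use. In the authors' list of day 14 after bleomycin against sham, 411 members (23.4%) were higher and 2 (0.114%) lower. Of the other gained regions 35.5% were higher and 0.116% lower, so the members' share of day 14 gains was below that of the other gained regions, and the difference of the shares was not tested. Of the raised regions below sham, 0.652% were higher at day 14. Seen from the lung, 410 of the 17333 regions gained at day 14 (2.37%) held a member.

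In the 411, the log2 difference of day 14 over sham had a median of 2.06 (1.00 to 5.82), beside 1.87 in all regions gained at day 14. The median level was 6.04 at day 14 and 3.93 in C57BL/6 sham. The gain was mostly gone by day 56. The authors' list of day 56 against day 14 called 363 of the 411 (88.3%) lower at day 56 and 0 higher, and 48 were not in it. Being lower at day 56 was common to regions gained at day 14. It held for 80.2% of all 17333 of them and for 90.6% of the 5534 other gained regions that were higher at day 14. Without regard to day 14, 406 members (23.1%) were lower and 1 higher in that list, beside 34.8% and 0.0707% of the other gained regions. In their list of day 56 against sham 10 members (0.568%) were higher, beside 0.899% of the other gained regions, and all 10 were among the 411.

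The member with the largest gain at day 14 was the intergenic 1 nearest to Mettl15. It had log2 levels of 6.47 at day 14 and 0.65 in C57BL/6 sham, a difference of 5.82, and fell by 5.25 at day 56 relative to day 14. In culture it had levels of 2.40 in sham, 5.83 on 0.2 kPa and 6.85 on 32 kPa. A member 195657 bases from Vegfc, the gene of a growth factor of lymphatic vessels, was higher at day 14 by 5.44, and 1 nearest to Letm1 by 5.25. Members beside Gm5148 (4.36), Plxdc2 (4.39), Mefv (4.45), Slc29a2 (4.54) and Isl1 (4.63) were close behind. The Raet1e intron, highest between the gels, was higher at day 14 by 2.87.

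The members gained at day 14 are set beside the 1349 others here as a description. Their median sham level in CD1 cells was 3.47, against 2.56 in the others, and their median log2 gain over sham was 2.38 against 3.00. The difference between the gels was 1.09 against 1.10. AP-1 was present in 72.0% of those gained at day 14 and in 61.2% of the others, RUNX in 38.0% and 26.4%, and TEAD in 25.1% and 32.6%. At least 2 AP-1 matches were present in 22.1% and 15%. The median GC content was 46.0% and 43.0%.

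The RNA of the nearest gene was read as a measure that the rule did not use. Members had 1467 nearest genes. Of these 1370 were in the CD1 table, and 1123 passed the filter of a mean rescaled value of 1, among 18488 genes tested. Library totals were 35858180 to 68929926 recovered reads on 32 kPa, 40858047 to 48448507 on 0.2 kPa and 57947660 to 69524944 in sham. CPM below is the count of a gene scaled to a fixed total of reads in named genes, so it compares libraries and not genes. Changes are log2 differences of rescaled value plus 1 from limma, with Benjamini-Hochberg adjustment over all genes, and a gene is called at an adjusted p under 0.05.

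Between the gels no nearest gene passed the test. With limma 0 of 1123 were called higher and 0 lower on 32 kPa, as were 0.0% of all genes in each direction. At an unadjusted p under 0.05, 22 were higher (1.96%, beside 1.75% of all genes) and 62 lower (5.52%, beside 3.72%). edgeR called 0 in each direction. DESeq2 called 0 higher and 4 lower of 1126 (0.0% and 0.355%), beside 4 higher and 39 lower of 18555 genes (0.0216% and 0.21%). The median log2 difference was −0.08 in nearest genes and −0.01 in all genes tested. The 95% interval lay within 1 log2 unit of 0 for 721 of the 1123 (64.2%, beside 60.1% of all genes) and for 716 of the 881 with a mean of at least 1 CPM (81.3%). In simulated data of this design the test recovered 71% of 2-fold and 100% of 4-fold changes. The simulated data had a common spread for all genes, no change in weakly expressed genes and no outlying library. Recovery in the real libraries may therefore be lower.

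1 library sets much of this count. Replicate 3 on 32 kPa had 17872 genes detected, against 16394 and 16311 in the other 2, and the most reads of the 3. Without it limma called 10 nearest genes higher and 45 lower of 1125 (0.889% and 4.0%), beside 1.71% and 2.75% of all genes, so among called genes the lower ones outnumbered the higher ones beside regions that were more open. Lower without it were Epha3, an ephrin receptor, by 1.72 on the log2 scale, Hgf, the hepatocyte growth factor, by 1.12, Thbs2, a matrix glycoprotein, by 1.16, and Inhba, the subunit of activin A, by 1.29 (adjusted p = 0.0354). Higher were Tpd52 (0.54), Pdlim1 (0.51), Gadd45g (0.90) and S100a11 (0.57). For Inhba the 32 kPa libraries held 24.4, 26.5 and 127.6 CPM, the 0.2 kPa libraries 77.1, 76.4 and 50.5. Replicate 3 was above all 3 soft libraries and the other 2 were below them.

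The 4 genes that DESeq2 called, and the lowest p-values by limma among nearest genes, were all lower on the stiff gel. Over all genes, too, DESeq2 called more lower than higher. Bmp2, a BMP ligand whose nearest member lies 225277 bases upstream, had 1.87, 1.69 and 1.87 CPM on 32 kPa and 3.19, 6.13 and 4.17 CPM on 0.2 kPa. The groups did not overlap, and the log2 difference was −1.18 ± 0.22 (SE, limma adjusted p = 0.278). Angpt2, an angiopoietin with a member in its intron, had 2.54, 2.89 and 3.29 CPM on 32 kPa against 5.43, 5.83 and 5.00 CPM on 0.2 kPa, a log2 difference of −0.83 ± 0.15 (adjusted p = 0.267). Megf10, a scavenger receptor with a member in its intron, had 13.3, 11.1 and 17.9 CPM on 32 kPa against 27.1, 28.7 and 24.5 CPM on 0.2 kPa, a difference of −0.87 ± 0.17 (adjusted p = 0.278). Fzd1, a Wnt receptor, had 36.9, 34.7 and 37.2 CPM on 32 kPa against 53.1, 53.3 and 55.7 CPM on 0.2 kPa, a difference of −0.50 ± 0.10 (adjusted p = 0.304). Cfap299, also among the 5 lowest p-values, had 0 reads on 32 kPa and 10 on 0.2 kPa. None passed with limma, and the members beside Bmp2, Angpt2, Megf10 and Fzd1 had log2 levels higher by 1.04 to 1.24 on 32 kPa.

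Genes with the most members were read next. Nrp2, with 6, had 66.4, 73.7 and 99.0 CPM on 32 kPa and 93.2, 91.0 and 84.6 CPM on 0.2 kPa, which overlap, with a log2 difference of −0.11 ± 0.13 between the gels and 0.06 ± 0.13 over sham, neither of which passed. Bmpr1b, with 4, differed by 0.02 ± 0.17 between the gels, and over sham it rose by 3.18 ± 0.17 (adjusted p = 3.41e-08), with 26.6, 20.8 and 29.2 CPM on 32 kPa against 3.02, 2.29 and 2.36 CPM in sham. Over sham Slit2 rose by 0.47 and Cdkal1 by 0.59, while Tmem135 fell by 0.77 and Dcbld2 fell by 0.63. Mbnl1, at 0.28, did not pass (adjusted p = 0.0751).

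Against sham most nearest genes changed, in both directions, as did most genes. On 32 kPa 351 nearest genes were higher (31.3%, beside 32.4% of all genes) and 511 lower (45.5%, beside 41.0%), with a median log2 difference of −0.32, beside −0.26. On 0.2 kPa 370 were higher (32.9%, beside 31.9%) and 484 lower (43.1%, beside 39.2%). The 2 comparisons share the sham libraries. These shares are near those of all genes and say nothing particular about the members.

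The nearer members are given separately, as a description. For the 223 tested genes with a member within 10 kb, a limit chosen after seeing the data, 86 were higher on 32 kPa than in sham (38.6%) and 82 lower (36.8%), with a median of 0.10. For the 689 within 50 kb the shares were 33.5% and 42.8%. Over all genes they were 32.4% and 41.0%, and the difference by distance was not tested. In bulk libraries fewer cells of a kind and less RNA per cell cannot be told apart. Between the cultures and sham, markers of other cells moved as well, with 9 of 10 endothelial, 9 of 10 leukocyte, 10 of 10 epithelial and 4 of 6 mesothelial markers lower on 32 kPa. The 10 endothelial markers summed to 10.3 to 11.7 CPM on 32 kPa and 252.3 to 277.9 in sham, the 10 leukocyte markers to 12.4 to 14 and 98.2 to 190.0, and the 10 epithelial markers to 0.0291 to 0.628 and 130.6 to 357.1. The 8 markers of mesenchyme summed to 4749.6 to 5147.3 CPM on 32 kPa and 52007.7 to 62512.3 in sham. None of these 8 was at 0 reads in any group, while Cldn5 of the endothelial, Krt8 and Nkx2-1 of the epithelial and Adgre1 and Cd3e of the leukocyte markers were among those at 0 on 32 kPa. Their part in the counts was not tested.

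**Figure D4:**
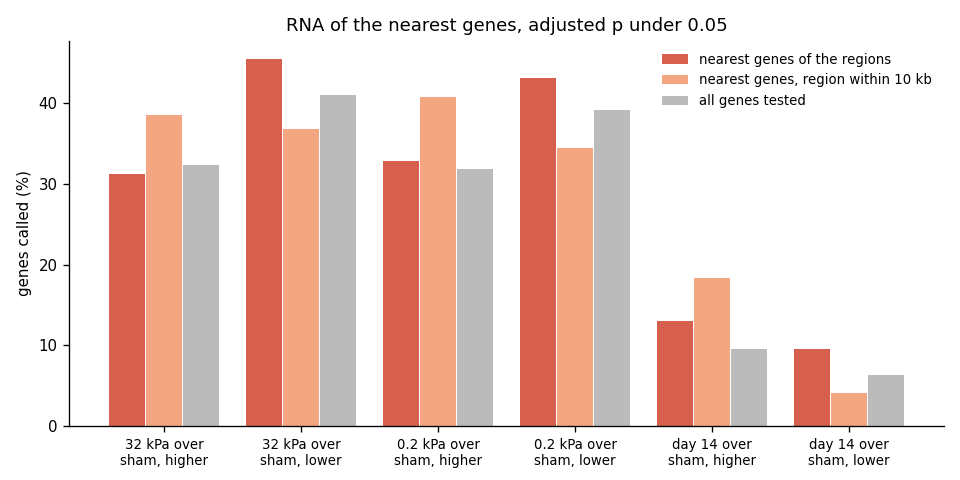
Percentage of tested genes called higher or lower by limma on 32 kPa and on 0.2 kPa over sham and at day 14 over sham, for the genes nearest to members, for those with a member within 10 kb, and for all genes tested. On 32 kPa over sham 31.3% of nearest genes are higher and 45.5% lower, beside 32.4% and 41.0% of all genes.

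Of the gene lists drawn up for fibroblast activation, that of integrins and focal adhesion proteins held 10 members beside 8 of 31 genes. The activation factors held 9 beside 7 of 24, and the TGF-beta genes 7 beside 6 of 22. Among all tested genes of the CD1 table, 1123 of 18488 were nearest to a member. The lists differ in size and their shares were not tested, so these counts do not rank them. Against sham 5 of the 8 adhesion genes rose on 32 kPa and 2 fell, with a median of 1.17. Over the whole list 13 rose and 16 fell. Between the gels 0 of the 8 were called. Itga5, the fibronectin receptor subunit, has a member 5196 bases upstream with levels of 5.61 in sham, 5.20 on 0.2 kPa and 6.23 on 32 kPa. Its RNA was 867.5, 812.6 and 1160.9 CPM on 32 kPa and 159.6, 111.3 and 186.2 CPM in sham. Every culture library was above every sham library, and the log2 rise was 2.53 ± 0.18 (adjusted p = 3.32e-07). On 0.2 kPa it was 940.5, 1004.5 and 938.0 CPM, within the range of 32 kPa, and the difference between the gels was 0.04 ± 0.18.

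Bcar1, the adaptor p130Cas that is stretched at adhesions, has a member 4184 bases upstream and rose by 2.59 over sham. Vcl, vinculin, with a member 4370 bases upstream, rose by 1.22, Tns3, a tensin, by 1.32 and Itgb1, the common beta subunit of the collagen and fibronectin receptors, by 1.11. Lpp, at 0.35, did not pass. Itga11, a receptor subunit for fibrillar collagen, went the other way. Its 2 members lie 52974 and 50804 bases upstream with log2 differences of 1.00 and 1.12 between the gels, and its RNA was 12.8, 14.1 and 22.7 CPM on 32 kPa against 177.4, 195.4 and 151.7 CPM in sham, a fall of 3.56 on the log2 scale. Itgb3, with 2 members in the gene, fell by 1.40.

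Of the 22 YAP and TAZ targets, 2 had a member, Ankrd1 and Vgll3. Ankrd1, a nuclear and sarcomere protein used as a YAP readout, has a member 8938 bases upstream with levels of 2.81 in sham, 4.76 on 0.2 kPa and 5.92 on 32 kPa, whose sequence above holds none of the 3 motifs. Its RNA was 428.8, 465.1 and 547.0 CPM on 32 kPa, 500.4, 495.2 and 455.0 CPM on 0.2 kPa and 10.2, 4.53 and 8.73 CPM in sham. The gels overlap and both are far above sham. The log2 rise was 5.89 ± 0.24 on 32 kPa over sham (adjusted p = 3.97e-09), and the difference between the gels was 0.06 ± 0.24 (95% interval −0.46 to 0.58). Vgll3, a partner of TEAD, rose by 1.91 over sham and differed by 0.06 between the gels. Over the whole list 15 genes rose over sham and 4 fell.

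Of the 24 factors of fibroblast activation 7 had a member, 9 members in all, and 3 rose over sham, 3 fell and 1 did not pass. Over the whole list 13 rose and 6 fell. Runx1 has a member in its intron, shown above, and another 104213 bases upstream, with levels of 1.85 in sham, 4.86 on 0.2 kPa and 5.92 on 32 kPa. Its RNA was 41.3, 44.0 and 36.5 CPM on 32 kPa and 6.17, 8.34 and 7.20 CPM in sham, without overlap, a rise of 2.37 ± 0.14 (adjusted p = 8.18e-08). On 0.2 kPa it was 34.1, 38.3 and 37.4 CPM, and the difference between the gels of 0.22 ± 0.14 did not pass. Klf6 rose by 0.58, and its member had levels of 2.50 in sham, 4.01 on 0.2 kPa and 5.53 on 32 kPa, a difference of 1.52 between the gels. Twist1, a factor of mesenchymal cells, rose by 0.79, beside a member with levels of 3.13 in sham, 5.48 on 0.2 kPa and 6.51 on 32 kPa. Both members were higher at day 14 by 2.58. Klf4, a factor of growth arrest with a member 410149 bases away, fell by 3.44. Wwtr1, which encodes TAZ, fell by 0.42 and Zeb1 fell by 1.49, and Prrx1, a factor of the fibroblast lineage, was at −0.24 and did not pass. Mrtfa, the actin-sensing partner of SRF, was the contractile and actin gene, of 28 listed, with a member, 2374 bases from its start in an intron. It rose by 1.67 over sham, and of the whole list 14 rose and 9 fell. None of the 12 genes of AP-1 subunits was nearest to a member, and over sham 2 rose and 7 fell. Factors of lung mesenchyme identity with a member included Gli3 and Meis1. Gli3, a transcription factor of the Hedgehog pathway, has an intronic member with levels of 2.64 in sham, 5.71 on 0.2 kPa and 6.72 on 32 kPa. Meis1 fell by 1.15 over sham, and the RNA of Gli3, at −0.07, did not pass.

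Of the 22 TGF-beta pathway genes 6 had a member, and of these 1 rose and 5 fell over sham. Over the whole list 8 rose and 12 fell. Inhba has a member 3971 bases upstream and rose by 2.33 ± 0.53 on 32 kPa (adjusted p = 0.00207), with 24.4, 26.5 and 127.6 CPM against 10.5, 5.02 and 9.35 CPM in sham. Ltbp1, which holds latent TGF-beta in the matrix, fell by 1.19, Nox4, an oxidase induced by TGF-beta, fell by 2.68, and the receptors Tgfbr1, Tgfbr3 and Acvr1 fell by 0.80, 3.92 and 0.34. For Tgfbr3 this was 28.6, 32.6 and 32.2 CPM on 32 kPa against 452.8, 496.3 and 358.3 CPM in sham.

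Matrix genes with a member were 4 of 34. Col5a2, a fibril-forming collagen whose member had levels of 5.90 in sham, 5.34 on 0.2 kPa and 6.40 on 32 kPa, rose by 0.42 ± 0.17 over sham (adjusted p = 0.0464), and Fbn1, fibrillin, fell by 2.88 and Thbs2 fell by 4.15. Col3a1, collagen III, has a member 41920 bases upstream with levels of 2.97 in sham, 4.01 on 0.2 kPa and 5.46 on 32 kPa, and a log2 difference of 1.45 between the gels. Its RNA was 200.6, 220.5 and 274.7 CPM on 32 kPa, 298.0, 298.2 and 283.7 CPM on 0.2 kPa and 19607.1, 18473.1 and 26112.2 CPM in sham. The chromatin level was highest on 32 kPa, where every RNA value was below those of the other groups. The log2 fall was 6.65 ± 0.15 over sham (adjusted p = 1.02e-10), and the difference of −0.28 ± 0.15 between the gels did not pass. The member in the Epas1 intron stood beside a gene of 7.78, 9.26 and 7.08 CPM on 32 kPa and 71.7, 56.5 and 80.7 CPM in sham, a fall of 3.23 ± 0.17 (adjusted p = 2.75e-08), with 0.02 ± 0.17 between the gels.

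**Figure D5:**
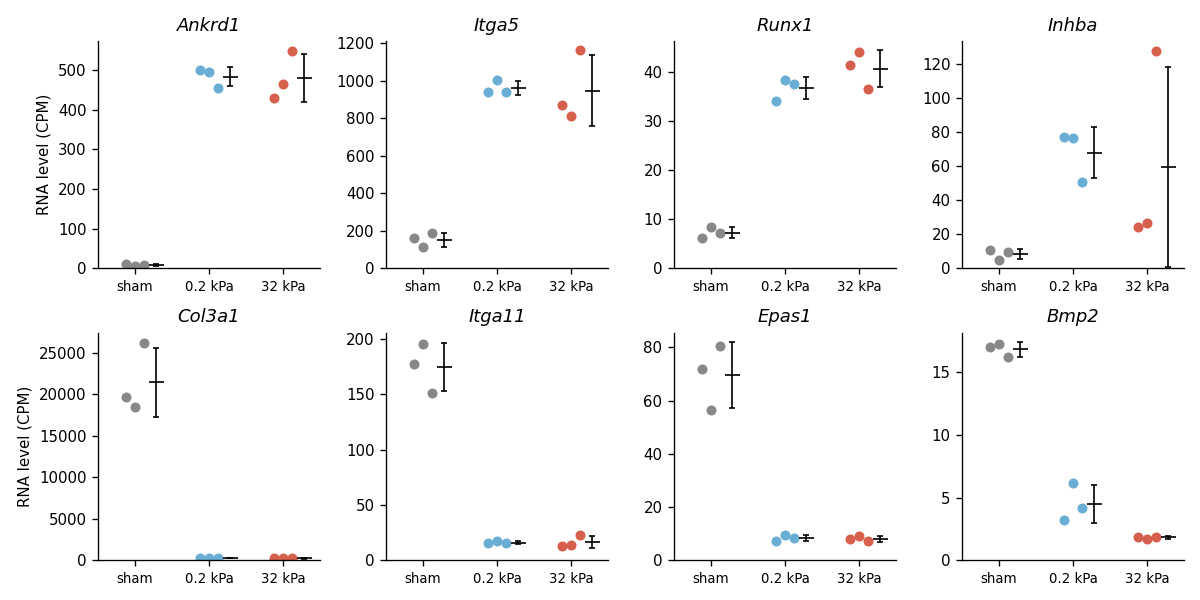
RNA of 8 genes nearest to members in CD1 libraries. Each point is the CPM of 1 library, with the mean and SD of 3 libraries, in sham, on 0.2 kPa and on 32 kPa. Ankrd1, Itga5 and Runx1 are higher in both cultures than in sham and overlap between the gels, Col3a1, Itga11 and Epas1 are lower in both cultures, and Bmp2 is lower on 32 kPa than on 0.2 kPa in every library.

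The largest changes over sham ran the same way on both gels in each gene given here. Gsta2, a glutathione transferase with 2 members within 1660 bases upstream, had 123.1, 118.4 and 106.1 CPM on 32 kPa and 0.0882, 0.0591 and 0.0819 CPM in sham, a log2 rise of 10.13. On 0.2 kPa it had 140.1, 134.1 and 130.0 CPM. Gsta2, Akr1c18 (7.92) and Ang2 (6.42) have close copies in the genome among which reads could be split. Rassf6, a RASSF family protein, rose by 7.89. Tmprss11f, a serine protease with a promoter member, had 76 reads on 32 kPa and 0 in sham, at least 31.4-fold higher against a floor of 3 reads over the group. Wincr1, a non-coding RNA, was read 2337 times on 32 kPa and 2 times in sham, 1448.5-fold higher on 32 kPa (95% counting limits 401.0 and 11960.5). The strongest falls were those of Sparcl1 (−11.00), Col6a6 (−10.36), Aox3 (−9.57), Aspn (−8.77) and Cxcl13. Cxcl13, a B cell chemokine, had 3 reads on 32 kPa and 3240 in sham and was 871.3-fold lower on 32 kPa (298.1 to 4224.8). Each of these 5 has at least 1 member that is more open on 32 kPa than in sham.

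In injured lungs the shares of nearest genes called were above those of all genes in both directions. At day 14, 144 of 1107 tested nearest genes were higher (13.0%, beside 9.54% of 21134 genes) and 106 lower (9.58%, beside 6.35%). With a member within 10 kb, 40 of 217 were higher (18.4%) and 9 lower (4.15%). Nearest to the members that were themselves gained at day 14, 47 of 312 were higher (15.1%) and 27 lower (8.65%), and within 50 kb of them 35 of 176 (19.9%) and 9 (5.11%). At day 56 limma called 0 of 1107 in each direction (0.0% and 0.00473% of all genes). At an unadjusted p under 0.05, 45 were higher (4.07%, beside 3.04% of all genes) and 48 lower (4.34%, beside 3.26%). DESeq2 called Serpine2 and Ppic higher and Cpz lower, of 1120 nearest genes (0.179% and 0.0893%), beside 0.25% and 0.12% of all genes. At day 14, 6 of 10 leukocyte markers were higher, and none was at 0 reads in any C57BL/6 group. They summed to 565.4 to 2145.7 CPM at day 14 and 237.0 to 357.9 in sham, while endothelial markers, 1 of 10 higher and 1 lower, summed to 74.4 to 134.8 CPM at day 14 and 177.1 to 276.1 in sham, and epithelial markers, 2 of 10 lower, to 23.6 to 76.8 and 123.1 to 321.7. The part of these markers in the counts was not tested. In simulated data of this design, with a common spread for all genes, 3% of 2-fold and 79% of 4-fold changes were recovered. Many small changes could therefore be missed. Genes with a small spread did pass under 2-fold, such as Tmem135 at −0.42 at day 14 (limma adjusted p = 0.039).

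Runx1, whose 2 members were both gained at day 14 (log2 1.25 in the intron and 2.10 upstream), had 61.4, 70.1, 85.1 and 109.1 CPM at day 14 and 8.27, 25.3, 17.8 and 23.8 CPM in sham, a rise of 2.24 ± 0.38 (adjusted p = 0.00116). At day 56 it had 42.4, 16.7, 13.2 and 26.7 CPM, which overlaps sham. Itga5 had 359.8, 638.3, 647.6 and 402.7 CPM at day 14 and 56.7, 75.9, 115.0 and 78.7 CPM in sham, a rise of 2.69 ± 0.26 (adjusted p = 1.65e-05). Inhba had 124.5, 102.5, 112.8 and 101.3 CPM at day 14 and 10.7, 18.5, 12.9 and 11.0 CPM in sham, a rise of 3.13 ± 0.18 (adjusted p = 2.38e-07). The members beside Itga5 and Inhba were not in the day 14 list. Ankrd1 rose by 2.91 (adjusted p = 0.00778), with 9.61 to 17.0 CPM at day 14 and 0.448 to 4.14 in sham. These values were far under its level in culture. Among genes with a member, 1 of 7 activation factors was higher at day 14 and 3 lower (Klf4 −0.96, Klf6 −0.53, Zeb1 −0.63). In adhesion genes this was 2 and 1 of 8 (Itga11 −1.21), and in TGF-beta genes 1 and 1 of 6 (Tgfbr3 −1.18). Lung mesenchyme factors had 0 of 3 higher and 2 lower. Over these whole lists 4, 3, 4 and 0 were higher and 5, 4, 2 and 12 lower. Bmp2, Angpt2 and Epas1 were also lower, Megf10 was higher and Fzd1 did not pass.

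The matrix genes with a member all rose at day 14, as did 28 of the 34 of the whole list. Col3a1 had 45860.4, 43363.2, 53931.5 and 50498.1 CPM at day 14 and 10444.7, 13946.9, 17150.0 and 10342.1 CPM in sham, a rise of 1.97 ± 0.29 (adjusted p = 0.000417), against its fall in culture. Its member was higher at day 14 by 2.80 and on 32 kPa over sham by 2.49, so the chromatin value had 1 direction in both settings and the RNA had opposite ones. Col5a2 rose by 2.39, Fbn1 by 1.30 and Thbs2 by 1.65. Cxcl13, with a member higher at day 14 by 3.38, had 90.3, 265.5, 154.5 and 36.0 CPM at day 14 and 1.72, 3.68, 2.02 and 0.677 CPM in sham, a rise of 5.99 (adjusted p = 1.90e-05), and was near 0 reads in culture. Raet1e had 86 reads at day 14 and 0 in sham, at least 32.9-fold higher against a floor of 3 reads over the group. Ptprc, which encodes the leukocyte antigen CD45 on which cells were sorted out, has a member in its intron that was higher at day 14 by 3.24. Its RNA rose by 1.43 at day 14 (adjusted p = 0.0345), with 27.6, 20.5, 7.30 and 30.8 CPM against 9.22, 8.91, 5.47 and 6.05 CPM in sham, and fell by 2.06 on 32 kPa.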

How the data were processed

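ATAC-seq region lists and RNA-seq gene tables of the same mouse lung mesenchyme groups were used. Per the submitters' processing notes, the ATAC data were handled with Bowtie2, SAMtools, MACS2, bedtools, DiffBind and HOMER and the RNA data with HISAT2, featureCounts of Subread, Picard and DESeq2, on mm10. Neither versions, parameters and the strand setting nor pooling of libraries for peak calls is given in the sources used here. Each region list, per the file headers, holds log2 concentrations per group and their log2 difference, a p-value and an FDR, and HOMER's distance to the nearest start, a signed score in bases, all as the authors deposited them. The lists were tested to hold FDR values of at most 0.05 and, except for 32 kPa against sham, log2 differences of at least 1.00 in size, so regions with smaller changes are not in them. The RNA signal, as deposited by the authors, was gene counts divided by 1 size factor per library. Whole reads were recovered from it (100% of values within 0.05 of a whole read), giving 35858180 to 69524944 reads per CD1 library and 14288605 to 51288435 per C57BL/6 library. Of the CD1 reads, 2.13% to 4.77% belonged to entries without a gene name, which were left out.

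Members and gene lists were chosen with earlier results of these data known. Motifs were read from GRCm38.p6, the same build, in 300 base windows. RNA values were rescaled by medians of ratios, and log2 of the value plus 1 was fitted with limma 3.58.1 (R 4.3.3), with trend, 1 fit per strain, for genes whose rescaled values averaged 1 or more, and Benjamini-Hochberg adjustment over all genes. That scale understates changes of low genes. edgeR 4.0.16 and DESeq2 1.42.0 on recovered reads, no filter, a pseudocount of 5, values as deposited, a replicate block, leaving out each library and limits on distance were alternatives. The test was tried on simulated counts with a common spread, in which only genes above a limit of mean CPM were changed. Replicate numbers did not pair libraries (correlations of deviations between −0.159 and 0.116). Genes named are those nearest to members with the 10 largest differences between gels, over sham and at day 14, to promoter members (at most 10), to several members, or on a list, those with the lowest p-values between gels, and the 5 largest changes each way over sham. Genes named for a call without replicate 3 on 32 kPa, or by DESeq2 at day 56, were chosen after their values were seen. List genes that a table holds under an older symbol (Mrtfa and Mrtfb) were matched through RefSeq synonyms. Wilson intervals and counting limits cover counting error only, while the intervals from limma rest on the spread between libraries. Some listed genes are not reported here.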

Additional observations from a re-analysis of the deposited data

Results flagged for a closer look

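Among genes nearest to members that the text names, 32 groups of 4 C57BL/6 libraries were examined for 1 library far from the others, which chance alone gives in about 1 of 20 groups, and 3 were found. Ankrd1 had 8.56 CPM in day 56 replicate 3, against 2.60 CPM in the next highest library. Itgb1 had 641.5 CPM in sham replicate 1, against 964.7 CPM in the next lowest. Raet1e had 0.0735 CPM in day 56 replicate 4, while the other 3 libraries of that group were at 0.0 CPM.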

How the results depend on the processing

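Regions. A 50 percent overlap of both regions left 1759 members, an FDR of at most 0.01 in both lists 1328 and a log2 difference of at least 1 in both 1645. Members higher at day 56 than in sham numbered 5 with 50 percent overlap and 6 at an FDR of at most 0.01, against 10. Members gained at day 14 numbered 326 and 407 under the same settings. In a 150 base window the motif shares of members were 55.6% for AP-1, 21.7% for TEAD, 18.6% for RUNX, 5.74% for C/EBP, 9.89% for the partial NFI motif, 0.341% for the CArG box, 9.38% for the E-box, 7.10% for GATA and 1.93% for the GC box, all lower because the window is shorter.

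Nearest genes. Between the gels DESeq2 called 4 lower, and leaving out 1 library gave 0 to 10 higher and 0 to 45 lower, with calls only without 32 kPa replicate 3. On 32 kPa against sham, members within 50 kb gave 231 higher and 295 lower and within 10 kb, chosen after seeing the data, 86 and 82. On 0.2 kPa against sham they gave 240 and 279, then 91 and 77. At day 14 they gave 63 lower within 50 kb, and 40 higher and 9 lower within 10 kb. Fewer genes were tested under these limits. Leaving out 1 library gave 322 to 353 higher and 471 to 527 lower on 32 kPa against sham, and 103 to 170 higher and 76 to 126 lower at day 14. At day 56 DESeq2 called 2 higher and 1 lower, a pseudocount of 5 gave 1 higher, and leaving out 1 library 0 to 1 higher. The cause was not tested. With the replicate number as a block, counts were 0 and 0 between the gels, 346 higher and 502 lower on 32 kPa against sham, and 131 and 87 at day 14. Of 4539 values of 57 named genes under these alternatives, 4337 stayed called or stayed uncalled, 120 lost a call and 21 gained a call. The other 61 also stayed uncalled but moved by more than the SE. Among genes called in the main fit 0 values changed direction. In genes uncalled there, direction was not followed.

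Limits. With 3 libraries per CD1 group, 71% of simulated 2-fold differences between gels were recovered, in data with a common spread and no outlying library. The nearest gene need not be the gene that a region acts on. Region values have no spread between libraries.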
